A study of Mus musculus with 8 samples.

Results

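The 9 genes described here encode transcription factors of the trophectoderm, Cdx2, Elf5, Tfap2c, Tfap2a, Gata3, Gata2, Tead4, Hand1 and Ets2, out of 21776 protein-coding genes, and they were chosen by name as trophectoderm regulators and located by the outer RefSeq bounds of GRCm38. Open chromatin in and around them was mapped in RHKI cells by ATAC-seq, an assay in which the Tn5 transposase cuts accessible DNA and tags it with adapters. RHKI is a mouse embryonic stem cell line made from E14Tg2a that carries an HA-tagged Rnaseh1 knock-in in all samples; the 4 control samples had no doxycycline and the 4 Dox samples had 500 ng/ml for 48 h. All were grown in 2i/LIF (NDiff 227 with LIF, serum, the GSK3 inhibitor CHIR-99021 at 3 µM and the MEK inhibitor PD0325901 at 1 µM), a medium that holds the cells in the naive state. The sources used here do not say whether the line is a single clone or whether replicates were separate cultures.

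The trophectoderm is the outer epithelium of the blastocyst and gives rise to the placenta. In outer cells Hippo signalling is low, YAP enters the nucleus and binds TEAD4, and Cdx2 and Gata3 are switched on; TFAP2C, TFAP2A, GATA2, ELF5 and ETS2 act with them to hold the trophoblast stem cell state, and HAND1 drives the formation of giant cells. Embryonic stem cells derive from the inner cell mass, where POU5F1 represses Cdx2, and the Elf5 promoter is known to carry DNA methylation in them.

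The series of 8 samples had a single peak list, which held 76996 open regions, gave only the position of each and named no sample. Dox could therefore not be compared with control, replicate error and read depth are unknown for every value below, and the absence of a peak from the list does not show that a site was closed. Markers of naive stem cells were open, since 7 of 8 (Pou5f1, Sox2, Nanog, Klf4, Tfcp2l1, Zfp42 and Prdm14) had a peak within 1 kb of a gene end, and the eighth, Esrrb, held 21 peaks inside the gene. None of 7 markers of primed or differentiated cells (Fgf5, T, Gata6, Gata4, Sox17, Pax6 and Alb) had a peak at an end, but 4 held peaks inside the gene, 6 at Pax6, 5 at Gata4, 2 at Sox17 and 1 at Fgf5. Over all protein-coding genes 61.7% had a peak at an end. A peak inside was present at 67.9% of them, near the share of these 7 markers (57.1%).

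Sequence around the gene start was at hand for 6 of the 9 members. RefSeq promoter windows (GRCm38.p6, 250 bases before to 50 after a listed start, written 5′ to 3′ on the strand of the gene) were found for Cdx2, Elf5, Tfap2a, Gata3, Gata2 and Ets2; Tfap2c, Tead4 and Hand1 had no entry. The first 4 sequences below are windows that an open region overlapped, with the bases under the peak in capitals; the peak covered the start itself at Ets2 and Gata2, began 1 bp from it at Gata3 and lay 219 bp from it at Tfap2a. The last 2 are starts with no peak, shown because Cdx2 and Elf5 are the master regulators of the lineage and of its stem cells, and their capitals mark a match to the POU octamer ATTTGCAT (Cdx2) and to the TEAD motif GGAATG (Elf5), each on the reverse strand.
Ets2, chr16:95702157-95702456, plus strand: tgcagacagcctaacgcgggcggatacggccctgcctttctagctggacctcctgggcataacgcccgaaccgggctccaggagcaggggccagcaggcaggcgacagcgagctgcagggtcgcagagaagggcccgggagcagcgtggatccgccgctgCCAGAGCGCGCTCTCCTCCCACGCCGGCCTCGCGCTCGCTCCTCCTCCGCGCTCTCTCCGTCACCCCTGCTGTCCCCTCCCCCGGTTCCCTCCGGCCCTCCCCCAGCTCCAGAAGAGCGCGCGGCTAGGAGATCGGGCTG
Gata2, inner start, chr6:88198414-88198713, plus strand: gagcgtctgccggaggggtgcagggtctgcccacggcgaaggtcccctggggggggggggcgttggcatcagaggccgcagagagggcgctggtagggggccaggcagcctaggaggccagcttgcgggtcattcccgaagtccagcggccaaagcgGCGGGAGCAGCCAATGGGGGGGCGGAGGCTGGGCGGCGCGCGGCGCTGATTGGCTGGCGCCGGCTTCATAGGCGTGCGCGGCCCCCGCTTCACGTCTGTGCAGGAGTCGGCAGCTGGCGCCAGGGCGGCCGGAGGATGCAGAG
Gata3, chr2:9878551-9878850, minus strand: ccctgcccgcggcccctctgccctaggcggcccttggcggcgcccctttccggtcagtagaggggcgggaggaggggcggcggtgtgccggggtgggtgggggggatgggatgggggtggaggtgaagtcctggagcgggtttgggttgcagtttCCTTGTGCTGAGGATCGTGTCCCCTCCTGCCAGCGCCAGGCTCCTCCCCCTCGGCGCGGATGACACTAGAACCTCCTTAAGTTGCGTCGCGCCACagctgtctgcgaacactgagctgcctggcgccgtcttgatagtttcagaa
Tfap2a, inner start, chr13:40733746-40734045, minus strand: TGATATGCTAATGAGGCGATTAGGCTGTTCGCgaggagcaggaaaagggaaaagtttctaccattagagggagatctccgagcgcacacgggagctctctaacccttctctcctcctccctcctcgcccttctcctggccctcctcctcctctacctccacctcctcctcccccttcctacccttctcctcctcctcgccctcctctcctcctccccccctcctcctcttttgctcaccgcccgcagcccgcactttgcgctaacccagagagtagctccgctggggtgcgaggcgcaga
Cdx2, chr5:147307200-147307499, minus strand: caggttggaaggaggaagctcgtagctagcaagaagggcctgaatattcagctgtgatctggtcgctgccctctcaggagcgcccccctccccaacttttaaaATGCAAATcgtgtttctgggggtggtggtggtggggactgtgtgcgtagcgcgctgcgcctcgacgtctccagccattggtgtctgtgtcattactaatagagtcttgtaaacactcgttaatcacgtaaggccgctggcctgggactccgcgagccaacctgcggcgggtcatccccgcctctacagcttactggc
Elf5, outer start, chr2:103411848-103412147, plus strand: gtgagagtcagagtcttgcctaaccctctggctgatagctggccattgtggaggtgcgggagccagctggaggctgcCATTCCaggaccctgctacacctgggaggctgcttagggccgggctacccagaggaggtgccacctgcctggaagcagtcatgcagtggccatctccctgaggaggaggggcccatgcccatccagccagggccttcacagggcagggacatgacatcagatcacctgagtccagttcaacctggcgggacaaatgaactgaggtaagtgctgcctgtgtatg

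Open regions lay inside every one of these genes but at the outer ends of few. A peak lay within 1 kb of an outer gene end at 3 of the 9 members, Tead4, Tfap2c and Ets2, where 61.7% of all protein-coding genes had one. All 9 held a peak inside the gene, against 67.9% of protein-coding genes, and all 9 held one over 1 kb inside both bounds, against 45.5%. The combination of no peak at an end and a peak deeper inside was present at 6 members (Cdx2, Elf5, Tfap2a, Gata3, Gata2 and Hand1), against 11.5% of protein-coding genes. Peaks were missing from both the ends and the inside at 0 members, against 26.9% of protein-coding genes. Gene length differs between the members, from 3.44 kb at Hand1 to 73.7 kb at Tead4; among protein-coding genes within that span of lengths, 67.0% had a peak at an end and 73.4% one inside. These shares are descriptions of 9 chosen genes and were not tested.

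**Figure D1:**
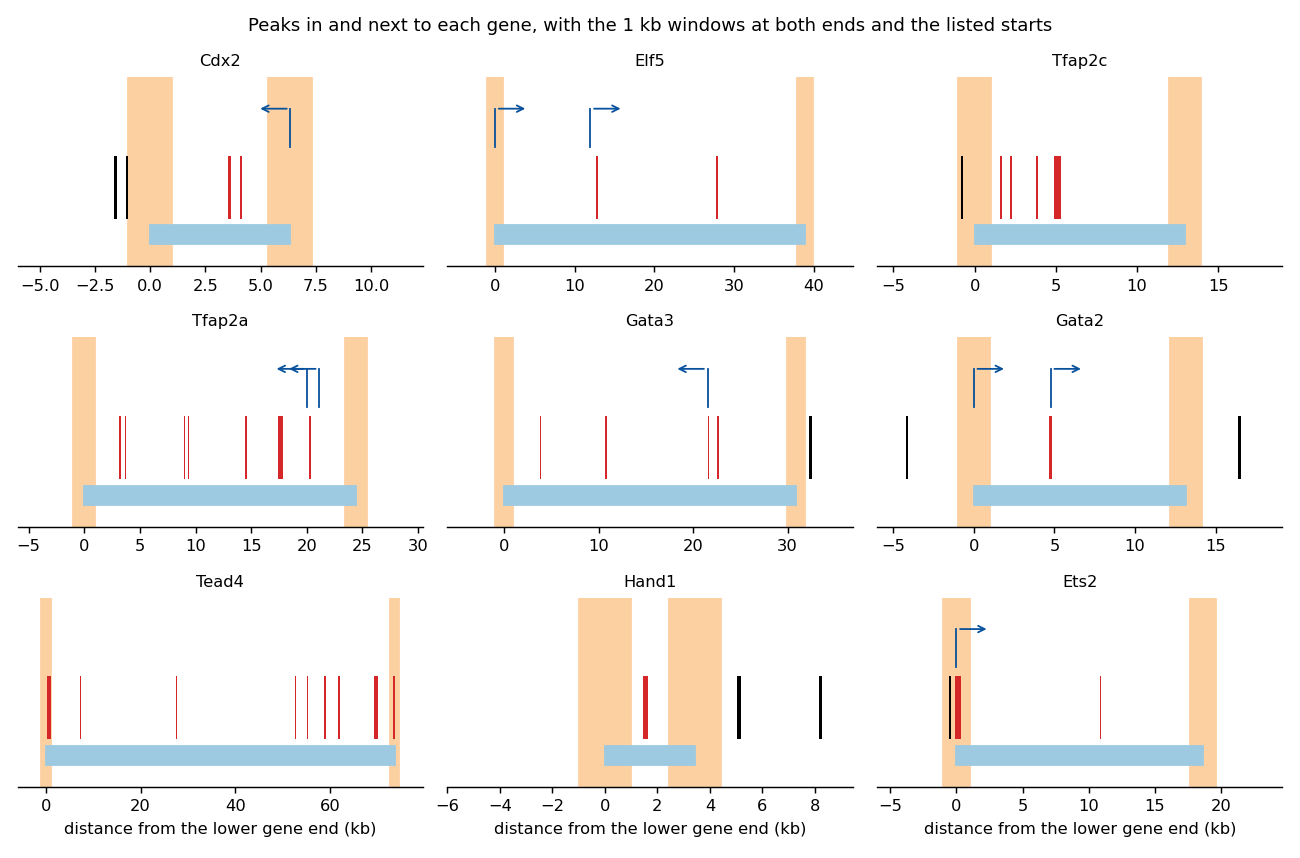
Peaks in and next to each gene; the x axis is the distance in kb from the lower gene end, blue bars are the genes by their outer RefSeq bounds, red bars peaks inside and black bars peaks outside the gene, orange bands the 1 kb windows at both ends and blue arrows the listed starts (none for Tfap2c, Tead4 and Hand1), with narrow peaks drawn at a minimum width. Peaks fall in an orange band at Tfap2c, Tead4 and Ets2 only, while all 9 genes hold at least 1 red bar.

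Several members have RefSeq starts inside their outer bounds, and open regions lay there. Of the 6 members with listed starts, 5 (Elf5, Tfap2a, Gata3, Gata2 and Ets2) had a peak within 1 kb of a listed start, where 62.1% of the 17492 protein-coding genes with listed starts had one. Only Ets2 had a peak within 1 kb of the outer bound at its start, against 58.2% of these genes. At Elf5, Tfap2a, Gata3 and Gata2 the peak was found at a listed start but at neither outer end. Of the 17492 genes 4.59% showed this pattern, which cannot arise where every listed start is an outer bound. Elf5, Tfap2a, Gata3 and Gata2 all have an inner listed start, and the share among genes with such a start was not determined. The 4.59% therefore does not show whether the pattern was unusual for them. Genes with more starts have more chances, and the share with a peak within 1 kb of a listed start was 81.3% among genes with 2 or more listed starts and 58.5% among genes with 1. This count was added after the peaks had been seen. Distances are the difference in coordinate between the nearer edge of a peak and the end or start.

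Tead4 encodes the DNA-binding partner of YAP at the top of the trophectoderm programme, and it had the most peaks of the 9 members, both inside the gene and within 100 kb. The gene (chromosome 6, 128227143 to 128300813) held 11 peaks, of which 8 lay over 1 kb inside both bounds. The widest of them, 454 bp (chr6:128300416-128300869), lay across the upper gene end, and 2 narrower peaks of 147 and 142 bp lay 281 and 746 bp inside the lower end. The inner peaks were uneven, with 6 between 128279710 and 128297160, a stretch of 17.5 kb that ends 3653 bp short of the upper end. At 1.49 peaks per 10 kb of gene, Tead4 stood at percentile 80.4 of all protein-coding genes, whose median was 0.447. Within 100 kb it had 29 peaks (percentile 91.4), but 14 of these lay at ends of or inside other coding genes, with 5 at Tspan9, 4 at Tulp3 and 3 each at Foxm1 and Rhno1.

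Cdx2, the homeobox gene that specifies trophectoderm, is short (6.35 kb, chromosome 5, 147300900 to 147307249) and had no peak within 1 kb of either end. Its nearest peak outside, 93 bp wide (chr5:147299787-147299879), lay 1021 bp below the lower end, which is the far end of the gene, since Cdx2 is on the minus strand. A second peak of 125 bp lay 1498 bp below that end. Inside the gene were 2 peaks, of 129 bp (chr5:147304438-147304566) and 124 bp (chr5:147304953-147305076), the nearer of which lay 2173 bp from the listed start. With 3.15 peaks per 10 kb Cdx2 stood at percentile 93.7 for density inside the gene. That density rests on 2 peaks in a short gene, and by the count of peaks inside it stood at percentile 64.6. Of its 16 peaks within 100 kb (percentile 60.8), 6 lay between 147293245 and 147305076, an 11.8 kb stretch from the gene past its far end. A further 5 peaks lay inside or at an end of the neighbour Flt3, and 1 at Pdx1, another ParaHox gene.

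Gata3, which acts beside Cdx2 downstream of TEAD4, had its open regions inside the gene and on 1 side. The outer bounds (chromosome 2, 9857078 to 9887953) reach 9353 bp beyond the listed start at 9878600, and a 95 bp peak (chr2:9878601-9878695) began 1 bp upstream of that start. Another 3 peaks inside the gene lay at 9860841, 9867746 and 9879611, with widths of 116, 152 and 123 bp. A peak of 329 bp (chr2:9889349-9889677), the widest in the window, lay 1396 bp past the upper bound, inside the noncoding gene 9230102O04Rik. In the 100 kb below the gene, past its far end, the list held 0 peaks, and all 6 flanking peaks lay above it, 4 of them inside Taf3.

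Gata2, the paralog of Gata3 that trophoblast and blood progenitors share, held a single peak inside the gene, and it covered a start. The 144 bp peak (chr6:88198571-88198714) lay across the inner listed start at 88198664, 4773 bp from the outer start. The outer start at 88193891 had its nearest peak 4091 bp away, inside the noncoding gene Gm38708. Past the far end the nearest peak, of 203 bp, lay 3241 bp outside the gene (chr6:88210273-88210475). Gata2 had 13 peaks within 100 kb, percentile 50.9, and 6 of them lay together, 69074 to 87612 bp below the gene, 3 of these between 88123610 and 88124817. The nearest coding gene end to all 6 was that of Rpn1, 849 to 19396 bp away, and 1 of them lay within 1 kb of it. Both GATA genes thus had their peak nearest to a start at an inner RefSeq start and none within 1 kb of an outer bound.

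Tfap2c and Tfap2a encode AP-2 proteins and are paralogs, and their layouts differed. Tfap2c (chromosome 2, 172545678 to 172558622) had a 149 bp peak 719 bp below its lower end and 4 peaks inside, at 1574, 2208, 3751 and 4871 bp from that end, with widths of 94, 99, 181 and 462 bp. The remaining 7612 bp up to the upper end held none. Tfap2a (chromosome 13, 40713802 to 40738238) had no peak within 3 kb of either end, with its nearest at 3123 and 4117 bp, but 7 inside, and the widest was 459 bp (chr13:40731241-40731699). One of the 7, of 108 bp, lay 219 bp from the inner listed start at 40733795 and 799 bp from the outer listed start at 40734920. Per 10 kb of gene the pair were close, with 3.09 peaks at Tfap2c and 2.86 at Tfap2a (percentiles 93.4 and 92.5).

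Around the genes the AP-2 pair were far apart. Tfap2c had 20 peaks in its flanks (percentile 80.6), which include peaks of 406 bp, 28636 bp below the gene, and of 416 bp, 18612 bp above it. Tfap2a had 6 in its flanks (percentile 33.5), of which a peak of 422 bp lay 64232 bp below the gene. Most of these sites had no other coding gene nearer: the AP-2 gene owned the nearest coding gene end for 21 of 24 peaks at Tfap2c and for 13 of 13 at Tfap2a. The window of Tfap2a holds 0 other coding genes and that of Tfap2c 3, where the median over all protein-coding genes was 4.

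Elf5, which keeps trophoblast stem cells self-renewing, had the fewest peaks within 100 kb of the 9 members. The gene (38.9 kb, chromosome 2, 103412098 to 103450989) had its nearest peaks 11333 and 11019 bp from the lower and upper ends. Inside were 2 peaks, of 133 bp (chr2:103424766-103424898) and 126 bp (chr2:103439845-103439970), and the first of these lay 698 bp past the inner listed start at 103424068. With 0.514 peaks per 10 kb it stood at percentile 53.1, near the middle of all protein-coding genes. Its 6 peaks within 100 kb (percentile 27.4) included 2 at Cat, the catalase gene, so 4 lay in or closest to Elf5.

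Ets2, an ETS factor that acts downstream of FGF signalling in trophoblast, had the only outer start covered by a peak among the 6 members with listed starts. The 404 bp peak (chr16:95702317-95702720) ran from 90 bp before the start to past it, and a peak of 165 bp lay 412 bp below the gene. Deeper inside was 1 peak of 107 bp, 7715 bp from the far end. Of the 18 peaks within 100 kb, 0 lay at or in another coding gene, since the window holds none. The densest stretch, 6 peaks over 19.2 kb, lay 77.8 kb below the gene, outside genes. The nearest coding gene end to all 6 was that of Erg, a gene beyond the window, 18833 to 37858 bp away.

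Hand1, a basic helix-loop-helix gene needed for trophoblast giant cells, is the shortest member (3.44 kb, chromosome 11, 57828713 to 57832147). Its inner peak of 207 bp (chr11:57830151-57830357) lay 1438 bp from the lower and 1790 bp from the upper end, outside both windows. The nearest peak outside, of 163 bp, lay 1599 bp above the gene. The widest peak around any member, 476 bp (chr11:57868878-57869353), lay 36731 bp above Hand1 inside the noncoding gene Gm33026. Of its 19 peaks within 100 kb, 8 lay in noncoding genes, 4 at or in Galnt10 and 2 at Sap30l.

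The 1 kb limit divided the members by small margins in places. Tfap2c counted as open at 719 bp, while Cdx2, Gata3 and Hand1 missed the limit with nearest peaks at 1021, 1396 and 1438 bp. A nearest peak between 1 and 2 kb from an end was thus present at 3 of 9 members, against 5.59% of protein-coding genes. Gata2 and Tfap2a followed at 3241 and 3123 bp and Elf5 at 11019 bp. With a 2 kb window 6 members had a peak at an end (67.2% of all protein-coding genes), and with a 5 kb window 8 did (73.8%).

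**Figure D2:**
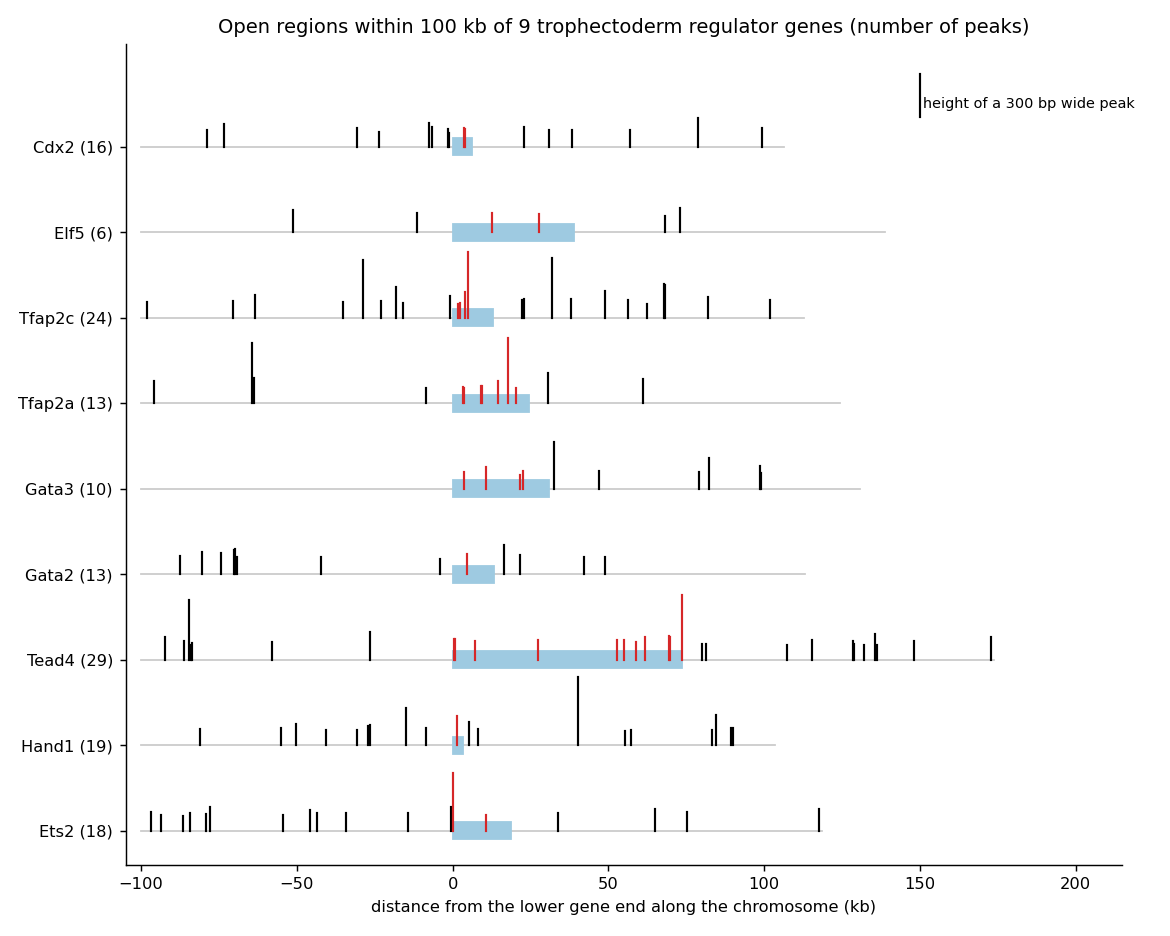
All 148 peaks within 100 kb of the 9 genes; the x axis is the distance in kb from the lower gene end along the chromosome, blue bars are the genes, red lines peaks inside and black lines peaks outside the gene, line height is proportional to peak width and the number of peaks stands beside each name. Counts run from 6 at Elf5 to 29 at Tead4, the side below Gata3 is empty, and 9 peaks over 400 bp stand out at Tfap2c, Tfap2a, Tead4, Hand1 and Ets2.

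Within 100 kb of the members lay 148 peaks, none of them counted for more than 1 member, a density of 73.2 per Mb where the chromosomes as a whole had 29.0. Per gene the gap was smaller, with a median of 16 peaks at the members and of 13 over all protein-coding genes. By rank the members ran from percentile 27.4 (Elf5) over 40.9 (Gata3), 50.9 (Gata2 and Tfap2a), 60.8 (Cdx2), 67.0 (Ets2), 70.0 (Hand1) and 82.6 (Tfap2c) to 91.4 (Tead4). More than 13 peaks were found at 5 of 9 members and at 47.5% of protein-coding genes, so the counts around the members lay close to the background. In distance bands the members had a mean of 0.778 peaks from 1 to 5 kb outside the gene, 2.11 from 5 to 20 kb, 3.33 from 20 to 50 kb and 6.22 from 50 to 100 kb, beside 0.513, 1.89, 3.51 and 5.58 for all protein-coding genes. Within 1 kb outside the gene the values were 0.222 at the members and 0.575 over all genes, but they were counted by unlike rules. The value over all genes includes peaks that cross a gene bound, and the value of the members leaves them out. Ets2 and Tead4 had such peaks, so the gap between the values is overstated. In the farther bands, a peak across a band limit counted in both bands over all genes and only in the nearer band at the members.

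**Figure D3:**
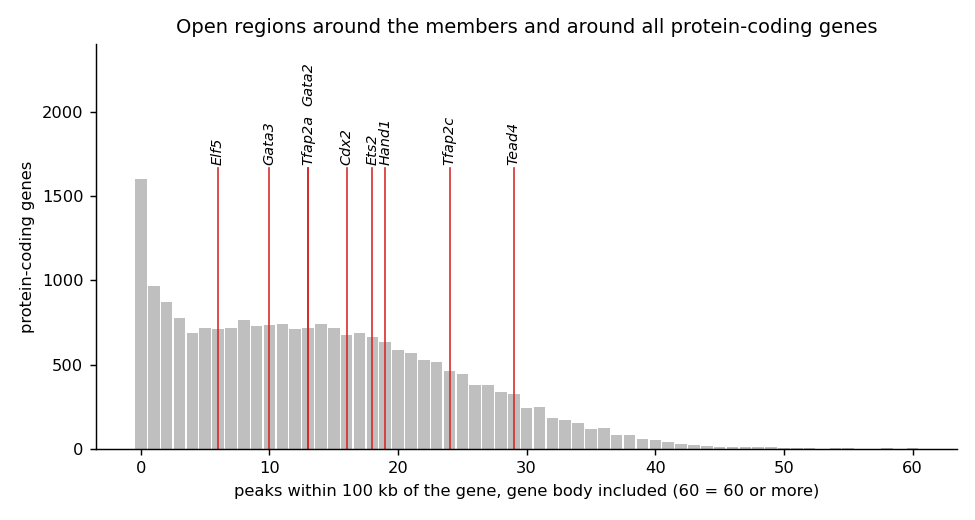
Number of protein-coding genes (y axis) by the number of peaks within 100 kb, gene body included (x axis, 60 stands for 60 or more), with a red line for each member. The members spread over the bulk of the grey distribution, from 6 at Elf5 to 29 at Tead4.

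Peaks whose nearest coding gene end belonged to the member gave a larger contrast. The members had a median of 7 such peaks and all protein-coding genes 2, with 21 at Tfap2c, 14 at Tead4, 13 at Tfap2a, 12 at Ets2, 7 at Hand1, 6 at Cdx2, 5 at Gata3 and 4 each at Elf5 and Gata2. Every member but Tead4 had fewer other coding genes in its window than the median of all protein-coding genes. The windows of Ets2 and Tfap2a held 0 other coding genes, those of Elf5 and Gata3 held 1, that of Hand1 2, those of Cdx2, Tfap2c and Gata2 3 and that of Tead4 6, beside a median of 4. The part of gene spacing in the count was not tested.

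By place, 36 of the 148 peaks belonged to the member itself, 6 in a window at its ends and 30 elsewhere inside it. Another 17 (11.5%) lay at an end of a different coding gene, 18 (12.2%) inside one, 23 (15.5%) in a noncoding gene and 54 (36.5%) outside annotated genes. Over all chromosomes 22.5% of peaks lay at ends of coding genes, 41.2% inside them, 7.84% in noncoding genes and 28.5% outside genes. Around the members, own and other genes together, ends and inner parts of coding genes thus held smaller shares, and noncoding genes and stretches outside genes larger ones. Tfap2c and Ets2 had the most peaks outside genes, 11 and 12. The gene table holds no exons, so exonic, intronic and UTR positions were not determined here.

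**Figure D4:**
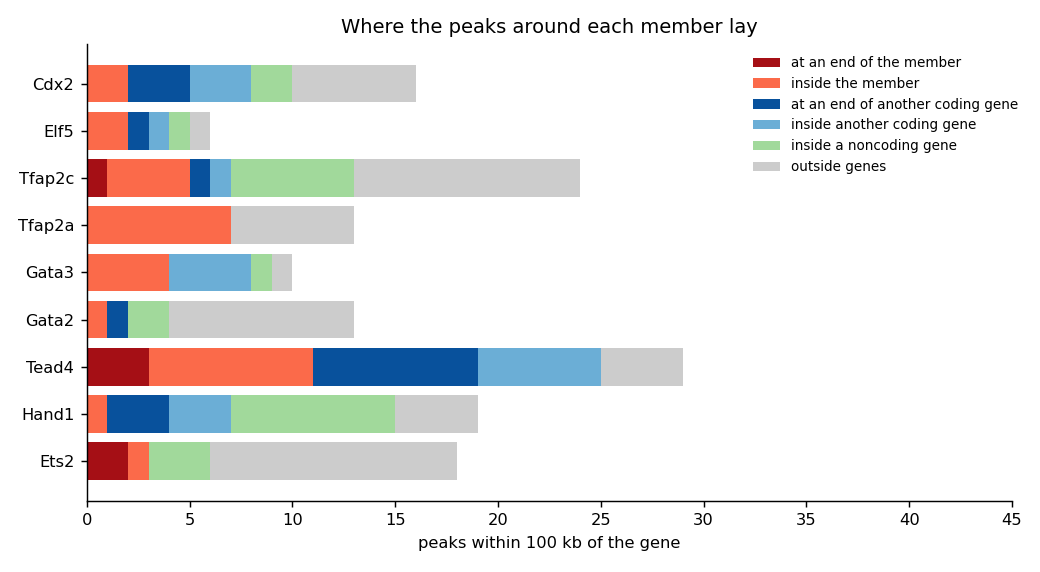
Peaks within 100 kb of each member (x axis, number of peaks) by where they lay, with a peak inside a 1 kb end window of the member counted as at its end. Ends of the member appear at Tfap2c, Tead4 and Ets2 only, ends of other coding genes are most frequent at Tead4 (8), and most of the bar lies outside genes at Gata2 (9 of 13) and Ets2 (12 of 18).

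Peak width, the only measure the list gives of a peak, had the same middle at the members as elsewhere but more wide peaks inside them. Around the members the median width was 128 bp (93 to 476 bp), and over all peaks it was 130 bp (90 to 1233 bp). Of the 34 peaks inside a member 4 (11.8%) were over 400 bp wide, 1 each in Tfap2c, Tfap2a, Tead4 and Ets2, where 4.17% of peaks inside any coding gene were. Those in Tead4 and Ets2 (454 and 404 bp) lay across a gene bound, at an end of the gene. Peaks of this kind are counted in both shares. In the flanks 5 of 114 (4.39%) were that wide, close to the 3.21% over all peaks. Neighbouring peaks were also close together inside the members: 17 of 34 (50%) had another peak within 1 kb, against 26.5% of peaks inside any coding gene. All 4 inner peaks of Tfap2c, 4 of 7 of Tfap2a, both of Cdx2 and 4 of 11 of Tead4 were of this kind. Width may follow read depth, which is unknown here.

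**Figure D5:**
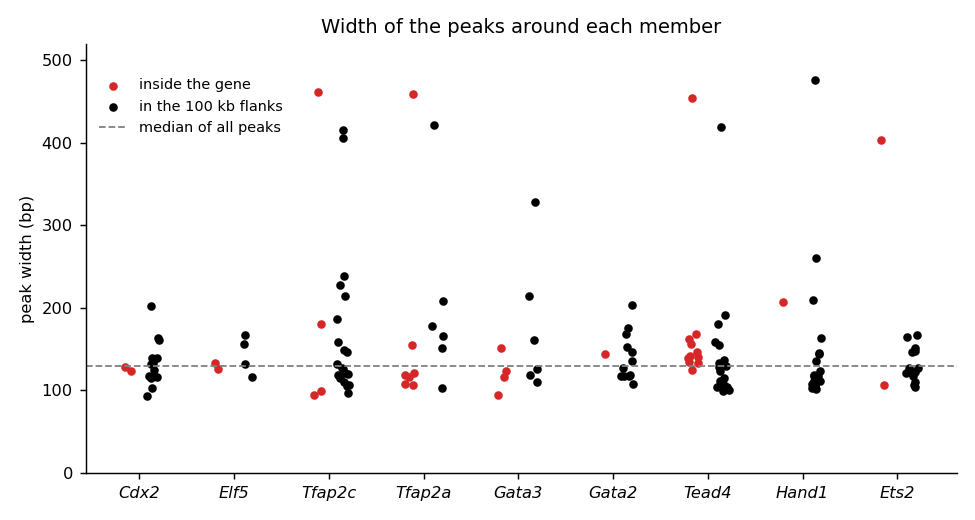
Width in bp (y axis) of each peak inside (red) and in the 100 kb flanks (black) of each member, with the median of all peaks as a dashed line. Most points sit near 130 bp, and 9 lie above 400 bp, the widest at 476 bp in the flank of Hand1.

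The start windows of the members differed in CpG content, and over the whole promoter table peaks were more frequent in windows richer in CpG. Observed over expected CpG was 0.11 at the outer start of Elf5 (percentile 11.7 of 21263 windows), 0.442 at its inner start, 0.731 at Cdx2, 0.791 at Ets2, 0.658 at Gata3, 0.621 and 0.71 at the inner and outer starts of Tfap2a and 0.76 and 0.9 at those of Gata2. Over all coding-gene windows a peak was present in 4.83% of those below 0.2, in 55.4% of those from 0.4 to 0.6, in 77.6% of those from 0.6 to 0.8 and in 83.7% of those from 0.8 up. The Cdx2 start and the outer starts of Gata2 and Tfap2a thus had no peak although their CpG class mostly did, and the outer Elf5 start had none in a class that rarely did. Over all windows 50.2% held a peak, and 4 of the 9 windows of the members did.

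Motifs of the TEAD, AP-2, GATA, CDX and ETS families, the POU octamer and motifs of general promoter factors were searched in the 9 windows on both strands. No motif for HAND1 was searched. No match overlapped another motif. The TEAD motif GGAATG was found at the outer start of Elf5 (first base at -173 from the start, printed above) and at the inner start of Gata2 (-120), and in 13.6% of all windows. The AP-2 motif GCCNNNGGC was found 3 times at Gata3, once at the inner start of Gata2 and once at Cdx2, and in 19.9% of all windows. The POU octamer ATTTGCAT was found at Cdx2 (-147), and in 1.66% of all windows. The SP and KLF motif GGGCGG was found at Ets2, Gata3 and all listed starts of Gata2 and Tfap2a, and in 46.2%; the 3 matches at the inner Gata2 start lay under its peak. No window of a member held the GATA motif AGATAA (9.65% of all windows), the CDX motif TTTATNG (9.58%), the ETS motif CCGGAAG (11.6%) or the TATA box TATAAA (12.6%). A match describes the letters only and shows no binding.

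Genes upstream of the members were open at their ends without exception in the list used. All 15 Hippo and Notch genes had a peak at an end and a peak inside, against 61.7% and 67.9% of protein-coding genes. Among them were the coactivator genes Yap1 and Wwtr1 with 2 peaks each at their ends and the kinase gene Lats1 with 2. Nf2, the tumour suppressor that activates the pathway, had the most peaks within 100 kb (36) and Amot, which tethers YAP, the fewest (2). The list median within 100 kb was 16, the same as that of the members. These 15 genes had a median length of 59.5 kb, against 17.2 kb over all protein-coding genes. The part of length in their counts was not tested.

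Other trophectoderm and trophoblast genes lay near the background, with a peak at an end at 15 of 23 (65.2%) and inside at 18 (78.3%). The shares over all protein-coding genes were 61.7% and 67.9%. Eomes, a T-box gene of trophoblast stem cells, had 2 peaks at its ends, and the keratin genes Krt8 and Krt18 had 1 each. Krt7, Bmp4 and Esrrb had none at an end and 1, 1 and 21 inside. Within 100 kb the list ran from 40 peaks at Tfeb to 0 at Tpbpa and Prl3d1, markers of spongiotrophoblast and giant cells, whose nearest peaks lay 194079 and 781688 bp away. This list holds Sox2, Esrrb and Klf5, which naive stem cells also express.

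Paralogs of the members were set beside them by family. A peak at an end was found at 11 of 18 paralogs (61.1%) and a peak inside at 14 (77.8%), beside 61.7% and 67.9% of protein-coding genes. Cdx1, Elf1 and Elf2 were among those with an end peak. Tead1, Tead2 and Tead3 each had a peak at an end like Tead4, with 31, 32 and 31 peaks within 100 kb beside its 29. Of the other AP-2 genes Tfap2b had 0 at an end and 3 inside, Tfap2d 0 and 0, and Tfap2e 1 and 1. Gata4 had 0 at an end and 5 inside, while Gata1 and Gata6 had 0 and 0, and Gata6 had the fewest peaks of the list within 100 kb (2). Cdx4 and Ehf also lacked an end peak, and Ehf, which neighbours Elf5 on chromosome 2, held 2 peaks inside as Elf5 did.

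Regulators of other lineages are given beside the members. Of all protein-coding genes 61.7% had a peak at an end, and 11.5% had none there but one over 1 kb inside. Their median was 13 peaks within 100 kb. Among 9 endoderm regulators 2 (Foxa1 and Foxa2) had a peak at an end and 5 had none at an end but one deeper inside, Gata4 and Sox17 among them, with a median of 10 peaks within 100 kb and 2 at Gata6 to 17 at Hnf4a. Among 9 primitive streak and mesoderm regulators 6 (66.7%) had a peak at an end, near the background, Eomes, Mixl1 and Tbx6 among them. Of the 9, 0 had the inner pattern, and the median was 16. T, Gsc and Msgn1 had no end peak. The median length was 3.77 kb at these mesoderm genes and 18.6 kb at the members. Msgn1, Mesp1 and Gsc (0.567, 1.35 and 2.03 kb) were too short for the inner pattern, which needs a peak over 1 kb inside both bounds. For the other genes the part of length in this count was not tested. Among 12 naive pluripotency factors 10 had a peak at an end, with Pou5f1, Sox2 and Nanog among them, 2 (Esrrb and Nr5a2) had the inner pattern, and the median was 22.5, from 13 at Klf4 to 40 at Nanog. Density inside the gene had a median of 1.49 peaks per 10 kb at the members and 1.43 at the naive factors. The medians were 0.868 at the other trophectoderm genes, 0.865 at the Hippo and Notch genes, 0.64 at the endoderm regulators, 0.628 at the paralogs, 0 at the mesoderm regulators and 0.447 over all protein-coding genes. The differences between lists were not tested, since members of each were chosen with results of these data known.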

How the data were processed

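ATAC-seq libraries came from 4 control and 4 Dox samples, grouped by title. HOMER 4.11, deepTools 3.5.1, Bowtie2 2.5.0, SAMtools 1.16.1, Picard 2.10.9 and Trimmomatic 0.39 and the build GRCm38 are named, per the submitters' processing notes, without roles; the sources used here do not state the peak caller, its threshold or any pooling. The deposited list holds 3 columns of positions in base pairs and 0 columns of values per sample, so the planned test of Dox against control was not run. RefSeq's GRCm38.p6 table gave outer gene bounds for 21900 protein-coding genes, of which 124 on scaffolds, patches or the mitochondrion were left out; all 9 members matched by symbol. Strand and starts came from RefSeq's promoter table, whose orientation matched in 1677 of 1677 overlapping windows of opposite strands. Peaks were counted with an overlap of 1 bp; percentiles are mid-ranks over all protein-coding genes. The members and lists were chosen with earlier results of these data known, so no test was run and each count stands beside its background. Named are all members, neighbours that hold 3 or more of a member's peaks, and from each list the first 3 with and without a peak at an end and the extremes within 100 kb; other names were chosen after their values were seen. On simulated data 200 of 200 genes returned the counts placed. Calculations used Python 3.11.15, NumPy 2.4.6, pandas 2.3.3 and matplotlib 3.10.9.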

Additional observations from a re-analysis of the deposited data

How the results depend on the processing

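The count of 3 members with a peak at an end depended on the window and on which starts were used. It was 6 with a window of 2 kb and 8 with 5 kb. For the 6 members whose strand is known, 1 (Ets2) had a peak at the outer start. With starts from the promoter table, an alternative added after the peaks had been seen, 5 of these 6 had a peak within 1 kb, and 7 of 9 had one at an outer end or a listed start. A window of 500 bp gave 2 (background 56.4%), the peak centre 3 (60.9%) and peaks wider than the median 3 (41.5%), where the members' share of 33.3% lay nearer to the background. The background moved from 61.7% to 38.6% when all annotated genes were counted. A peak inside the gene was found at 9 members in 2 alternatives and at 8 with peaks wider than the median, Cdx2 being the one without. The ratio of the members' median to that of all genes within 100 kb was 1.23, ran from 1.17 to 1.62 over 6 alternatives and was 3.5 for peaks whose nearest coding gene end was the member's. Of 63 ranks of single members under these alternatives, 8 crossed the middle of all genes, at Elf5, Ets2, Gata2, Gata3 and Tfap2a. No paired analysis was possible because the deposited list has no value per sample; for the same reason no replicate could be left out. Of 17 motif matches in the start windows 3 lay under a peak, all of the SP and KLF motif at the inner Gata2 start. Depth is unknown, so missing peaks may reflect it.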
